A study of Rattus norvegicus with 24 samples.

Results

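The brain stem of male rats fed rotenone was compared between day 3 and day 1 of treatment. The comparison holds 8 of the 24 arrays of the series, namely the 4 labelled 400 ppm rotenone at day 3 and the 4 labelled 400 ppm rotenone at day 1, and every transcript cluster on the array apart from control probe sets was tested. All animals were RccHan Wistar males aged 7 to 8 weeks. The treated rats received 400 ppm rotenone in the chow for 1 or 3 consecutive days, whereas the control rats of the same days, 4 for each day, received untreated food. Each array held the RNA of 1 rat, and day 1 and day 3 were different rats, so a difference between days is a difference between groups of animals and not the course of one animal. An untreated group at the start of feeding was not analysed here.

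Rotenone is a plant compound that blocks complex I, the entry point of electrons from NADH into the mitochondrial respiratory chain, and it also binds tubulin. The brain stem joins the forebrain to the spinal cord. Its raphe nuclei hold the neurons that make serotonin, other nuclei make noradrenaline or acetylcholine, and its dorsal part receives signals on feeding and blood chemistry. Animals were killed by exsanguination and the piece of tissue contained its blood vessels, so transcripts of blood cells are part of what the arrays measured.

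The arrays did not all carry the same level of transcripts of neighbouring tissue. What was cut with each brain stem is not recorded by the labels. Genes of the cerebellum, which lies on top of the brain stem, had a mean level of 7.92 to 8.29 on the log2 scale in the 4 treated arrays of day 1 and of 8.02 to 8.03 in those of day 3, but of 11.42 and 10.98 in control day 1 replicates 1 and 3. In these 2 control arrays Hoxa2, a gene that marks hindbrain cells, was at 9.70 and 6.94, whereas the 8 treated arrays lay between 10.64 and 11.36. Slc6a5, the transporter of glycine neurons of the hindbrain, ranged from 13.34 to 13.95 over the treated arrays and was at 12.98 in control day 1 replicate 1 and at 9.73 in replicate 3. These 2 genes were picked after their values were seen. Control day 1 replicate 1 lay inside the treated ranges for the hindbrain genes Hoxb5, at 6.78, and Hoxb2, at 8.07, and for the myelin gene Mbp, at 12.63, whereas replicate 3 was below them for all 3. These ranges are those of the treated arrays themselves, so they cannot test whether those arrays carried the markers of their label. Hoxa2 and Slc6a5 lay above the median cluster, 6.24, in all 8 of them. The 2 control arrays fell outside the ranges in part, and other control arrays are not given for these markers. Some control differences below are also given without these 2 arrays. Only replicates 2 and 4 of control day 1 then remain. A smaller group alone lowers counts at an unadjusted p under 0.05, so a count of 0 does not show that the control difference was absent.

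No transcript cluster differed between day 3 and day 1 of rotenone feeding after correction for the number of tests. Of 68842 clusters, 0% passed limma at an adjusted p under 0.05, and the lowest adjusted p was 0.9999. At an unadjusted p under 0.05 there were 1191 higher and 1525 lower clusters, together 3.95% of all, and 42 clusters had an unadjusted p under 0.001. With each array centred on its median, the split was 1883 higher and 1004 lower, so the balance of directions over all clusters depends on the scaling. The controls of the same days had 0 clusters past the adjusted threshold and 8.15% at an unadjusted p under 0.05, with 3079 higher and 2533 lower. Without control day 1 replicates 1 and 3 these were 982 and 674. The difference between the treated and the control change was also tested, with 0 clusters past the threshold in limma and 3.99% at an unadjusted p under 0.05. Over 22093 genes, each represented by 1 cluster, the median difference of the treated groups was 0.02 and that of the controls 0.04. Because no gene passed, no gene below is said to have changed, and the values are those of the rats measured.

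**Figure D1:**
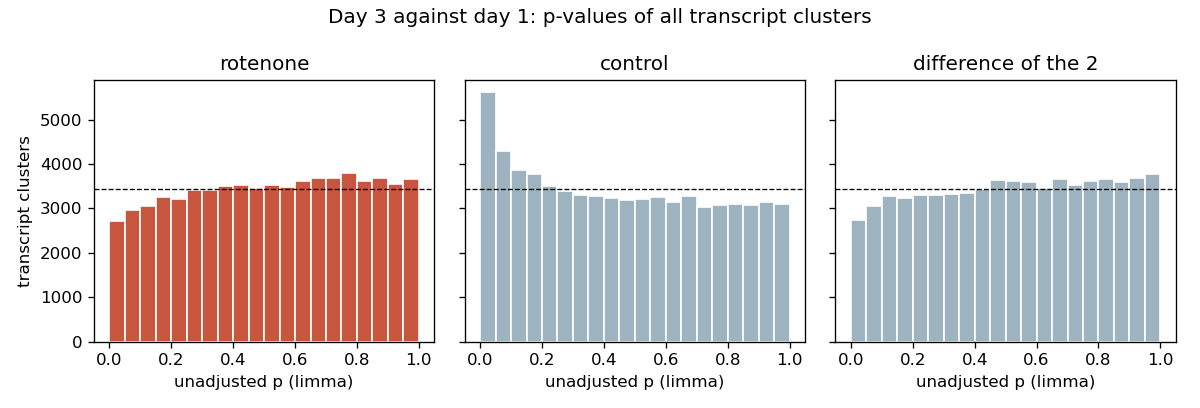
Number of transcript clusters (vertical axis) in each step of 0.05 of the unadjusted limma p (horizontal axis) for day 3 against day 1 in rotenone-fed rats, in control rats, and for the difference of both. The dashed line is the even share of 3442.1 clusters for each step, and the first step holds 2716 clusters in the treated rats, 5612 in the controls and 2745 for the difference.

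The gene with the smallest unadjusted p of all genes was Slc18a2, the vesicular transporter that loads serotonin, dopamine and noradrenaline into synaptic vesicles. The 300 bases around its transcription start are shown because this gene led the comparison, with a cyclic AMP response element (CRE, TGACGTCA) in capitals, which was searched on both strands and is found in 1.83% of the 33469 rat promoters of the same length. The sequence is that of RefSeq in build GRCr8, at chr1:268399771-268400070 on the plus strand, and runs from 250 bases before to 50 bases after the start.
Slc18a2 promoter: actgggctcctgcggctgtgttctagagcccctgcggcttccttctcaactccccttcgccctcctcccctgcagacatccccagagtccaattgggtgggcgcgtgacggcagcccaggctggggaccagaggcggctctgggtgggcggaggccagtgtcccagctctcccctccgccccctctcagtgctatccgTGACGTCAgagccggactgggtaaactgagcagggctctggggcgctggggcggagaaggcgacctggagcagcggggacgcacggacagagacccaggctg
The match is a description of the letters in this window. No match to the E-box CACGTG, to the D-box, to the metal response element or to the heat shock element was present in it.

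Slc18a2 was at 8.20, 8.66, 7.65 and 8.13 on the log2 scale in the 4 rats of day 1 of rotenone and at 9.58, 9.00, 9.03 and 9.17 in those of day 3. The 2 groups did not overlap. The difference was 1.03 (SE 0.21), with an adjusted p of 0.9999 in limma. The two-sided exact permutation test of 4 against 4 rats gave p = 0.029, the smallest it can give, which it gave for every gene below whose groups did not overlap. The controls were at 8.58, 9.03, 9.50 and 8.88 on day 1 and at 8.89, 8.98, 8.66 and 9.62 on day 3, a difference of 0.04. The treated rats of day 3 thus lay within the range of the 8 controls, and 3 of the 4 treated rats of day 1 lay below all of them. The difference between the treated and the control change was 1.00 (adjusted p = 0.9999 in limma), and 0.96 without the 2 cerebellar control arrays. With each of the 8 treated arrays left out in turn, the treated difference remained between 0.86 and 1.20.

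Tph2, the enzyme that sets the rate of serotonin synthesis in neurons, had the same order of groups. Its level was 9.37, 10.66, 6.55 and 9.70 at day 1 of rotenone and 12.33, 11.59, 11.31 and 12.07 at day 3. The control rats were at 6.36, 11.64, 10.93 and 11.32 on day 1 and at 11.33, 11.42, 11.18 and 12.32 on day 3. All 4 treated rats of day 1 were therefore below the treated rats of day 3 and below 7 of the 8 controls. The exception was control day 1 replicate 1, one of the arrays with cerebellar transcripts, while replicate 3, the other such array, was at 10.93. The treated difference was 2.76 (SE 1.01, exact permutation p = 0.029). The control means were 10.06 on day 1 and 11.56 on day 3, and without the 2 cerebellar arrays the control difference was 0.08. Rotenone day 1 replicate 3 was the lowest treated array, and without it the treated difference was 1.92.

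Slc6a4, the transporter that returns serotonin to the neuron, was at 8.54, 9.60, 7.18 and 8.83 at day 1 of rotenone and at 11.16, 10.43, 10.26 and 10.76 at day 3. The groups did not overlap, with a difference of 2.11 (SE 0.73), and of 1.66 without rotenone day 1 replicate 3. The control difference was 0.97, and 0.10 without the cerebellar arrays. Ddc, the decarboxylase that forms serotonin and dopamine, was at 7.96, 8.25, 7.65 and 8.17 and then at 8.82, 8.38, 8.47 and 8.51, again without overlap, a difference of 0.54, beside 0.36 in the controls and -0.0021 without the cerebellar arrays. Gch1, which makes the cofactor of the hydroxylases for serotonin and dopamine, also differed by 0.54, with overlap, beside 0.37 in the controls, or 0.06 without those arrays. The transcription factors of serotonin neurons Gata3 and Fev differed by 0.53 and 0.48, and only Gata3 did so without overlap. In the controls they differed by 0.18 and 0.27, and without the cerebellar arrays by 0.41 and -0.04, so that the difference of the changes of Gata3 was then 0.12. Maob, which breaks down monoamines, differed by 0.26 against 0.16 in the controls, and the serotonin receptor Htr1a by 0.35 against -0.06, both with overlap.

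Over the list of noradrenergic and serotonergic neurons, 14 of 15 genes were measured. None passed the adjusted threshold, 5 had an unadjusted p under 0.05 in the direction of a higher level at day 3 and 0 in the other, beside 2.5% of all genes higher and 1.19% lower. The 4 and 4 arrays did not overlap with day 3 higher for 3 of the 14, beside 3.09% of all genes. The median of the list was 0.24, against 0.02 over all genes, and in the controls 0.09, or -0.04 without the cerebellar arrays. Dbh, a member that forms noradrenaline, differed by 0.27 (SE 0.66, exact permutation p = 0.17), beside -1.31 in the controls and -0.22 without the cerebellar arrays. Th, the first enzyme of dopamine and noradrenaline synthesis, is on the list of dopaminergic neurons instead. It differed by 0.47 (SE 0.57), without overlap and with day 3 higher, beside -0.97 in the controls and -0.06 without those arrays. Among the 14 measured genes of that list, Slc18a2, Ddc and Gch1 were the ones at an unadjusted p under 0.05, and the median of the list was -0.02.

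Further genes of brain stem neurons had the same order of the treated groups. Slc17a8, a vesicular glutamate transporter that serotonin neurons of the raphe also use, was at 6.20, 6.04, 5.92 and 6.09 on day 1 and at 6.67, 6.34, 6.75 and 6.73 on day 3, a difference of 0.56 against 0.11 in the controls. Calcr, the calcitonin receptor, which takes part in satiety signals in the dorsal brain stem, was at 7.34, 8.01, 6.50 and 7.65 and then at 8.61, 8.77, 8.22 and 8.01, a difference of 1.03, with no gap between day 3 replicate 4 and day 1 replicate 2. The control difference of Calcr was 0.20. Glp1r, the receptor of glucagon-like peptide, differed by 0.29 without overlap. These 2 receptors were the members of the list of appetite and peptide genes at an unadjusted p under 0.05, of 24 measured, beside 2.5% of all genes with the higher level. The median of that list was -0.0032, with 12 differences above 0 and 12 below.

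In a bulk sample, fewer neurons of a type and less RNA for each neuron cannot be told apart. Markers of position were set beside the serotonin genes. The mean of 17 hindbrain Hox genes ranged from 6.74 to 6.99 at day 1 of rotenone and from 6.24 to 7.17 at day 3, so the ranges overlapped, with a median difference of -0.09 over the genes. Genes of cholinergic and motor neurons were at 9.56 to 9.72 and at 9.66 to 9.77. Low serotonin genes also occurred without rotenone, in values picked after they were seen. Control day 14 replicate 1 had Tph2 at 7.555 and Slc6a4 at 7.396, with Dbh at 11.35. In control day 1 replicate 1 Tph2 was at 6.36 and Dbh at 9.15, but in replicate 3 Tph2 was at 10.93 with Dbh at 10.504. Where along the brain stem each piece was cut is not recorded by the labels, and its part in the serotonin values was not tested.

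**Figure D2:**
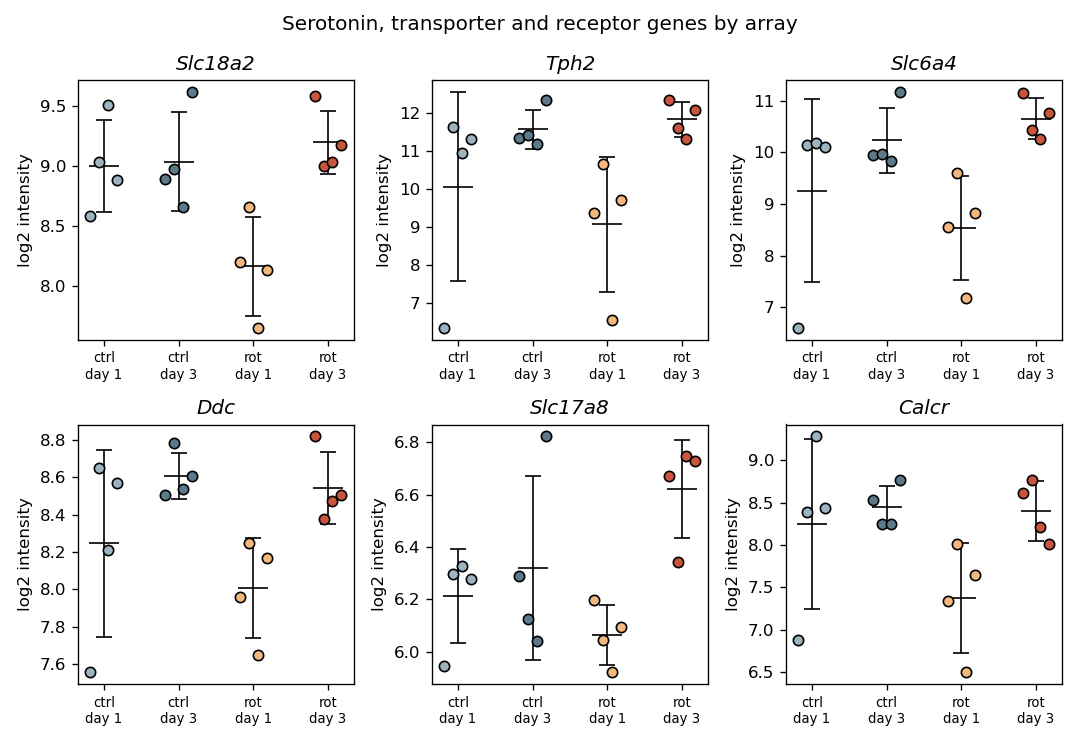
Log2 intensity (vertical axis) of 6 genes in each array of control and rotenone-fed rats of day 1 and day 3 (horizontal axis), with a point for each rat, a dash for the group mean and bars for the SD of 4 rats. The treated rats of day 1 lie below those of day 3 in all 6 panels, apart from Calcr, where 1 rat of each day is at 8.01, with Slc18a2 at 7.65 to 8.66 against 9.00 to 9.58, and control day 1 replicate 1 is the low control point for Tph2 and Slc6a4.

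Red cell transcripts had the largest median difference of the 44 gene lists, with lower levels at day 3. Hbb-b1, a beta chain of hemoglobin, was at 13.52, 14.81, 16.25 and 13.12 on the log2 scale in the treated rats of day 1 and at 12.40, 14.52, 11.61 and 11.26 in those of day 3. The groups overlapped through day 3 replicate 2. The difference was -1.98 (SE 0.80, exact permutation p = 0.11), and -1.51 for the second cluster that carries the symbol. The controls of the same days were at 12.31 to 13.94 and at 12.72 to 15.05, a difference of 0.44. Both treated groups therefore reached beyond the range of the controls, with day 1 replicate 3 above it and 2 of the 4 rats of day 3 below it.

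Alas2, the enzyme that starts heme synthesis in red cell precursors and is still present in reticulocytes, was at 8.36, 9.00, 10.87 and 7.24 on day 1 and at 7.29, 8.35, 7.08 and 7.27 on day 3. Its difference was -1.37 (SE 0.50, exact permutation p = 0.17), against 0.11 in the controls. The globin genes Hba-a3, Hbbl1, Hbb-bs and Hba-a1 differed by -1.73, -1.56, -1.48 and -0.88. Globin genes are near copies of each other, and their probes may share signal, so they do not count as separate observations. Alox15, a lipoxygenase known from reticulocytes and white blood cells, was picked out after its values were seen. It was at 7.03, 7.64, 9.17 and 6.35 and then at 6.28, 6.91, 6.25 and 6.27, a difference of -1.12 (SE 0.37, exact permutation p = 0.057).

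Of the list of globins and red cell genes, 9 of 11 were measured and 3 had an unadjusted p under 0.05 with the lower level at day 3, beside 1.19% of all genes in that direction. No member separated the groups, beside 0.991% of all genes, and the median of the list was -1.37 against 0.11 in the controls. A single rat carried much of this difference. Rotenone day 1 replicate 3 had the highest value of Hbb-b1, Alas2 and Alox15, and without it the differences were -1.37, -0.71 and -0.58, and those of Hba-a3, Hbbl1, Hbb-bs and Hba-a1 were -1.05, -0.98, -0.88 and -0.58. The same rat had the lowest Tph2, Slc6a4 and Slc18a2 of its group. Whether blood left in the tissue took part in these values was not tested.

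**Figure D3:**
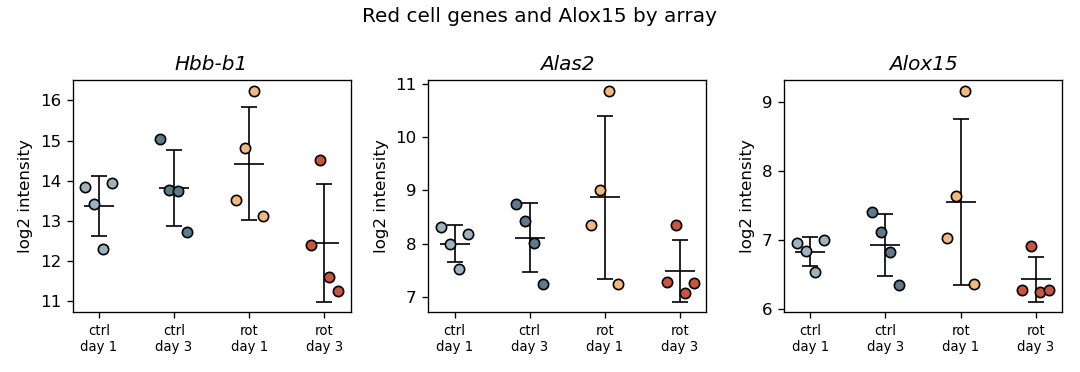
Log2 intensity (vertical axis) of the hemoglobin gene Hbb-b1, of Alas2 and of Alox15 in each array by diet and day (horizontal axis), with a point for each rat, a dash for the mean and bars for the SD of 4 rats. Rotenone day 1 replicate 3 is the highest point of each panel, at 16.25, 10.87 and 9.17, and the treated groups overlap.

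Metallothioneins, small proteins that bind zinc and copper and are induced by metals, glucocorticoids and stress, had a lower mean at day 3 than at day 1 of rotenone in 4 of 5 genes, while the controls went the other way. The promoter of Mt2A is shown because its treated groups did not overlap, with metal response elements (MRE, TGCACNC or TGCGCNC, searched on both strands) in capitals. It had 4 matches, none of which overlapped its single E-box, and MREs of this definition occur in 24.2% of all promoters of the same length. The sequence is that of RefSeq in build GRCr8, chr19:10838659-10838958 on the minus strand.
Mt2A promoter: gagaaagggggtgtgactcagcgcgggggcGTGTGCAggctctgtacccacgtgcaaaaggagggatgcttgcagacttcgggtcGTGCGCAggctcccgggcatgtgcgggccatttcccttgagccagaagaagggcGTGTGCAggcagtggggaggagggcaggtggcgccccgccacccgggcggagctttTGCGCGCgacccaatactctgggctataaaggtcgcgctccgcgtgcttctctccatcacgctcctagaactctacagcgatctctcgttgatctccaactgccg
The promoters of Mt1 and Mt3 held 6 and 3 such matches.

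Mt2A was at 15.36, 15.40, 15.35 and 15.42 at day 1 of rotenone and at 15.16, 15.27, 14.73 and 14.57 at day 3. All 4 rats of day 3 were below all 4 of day 1, with a difference of -0.45 (SE 0.22, exact permutation p = 0.029). The controls went from 14.98, 14.53, 14.29 and 14.22 to 15.01, 15.03, 15.37 and 14.55, a difference of 0.48. The difference of the 2 changes was -0.93 (SE 0.31, adjusted p = 0.9999 in limma), and -1.06 without the cerebellar control arrays. Mt1m, a further metallothionein gene, was at 16.66 to 17.09 on day 1 and at 15.79 to 17.01 on day 3, a difference of -0.52.

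Mt1 was at 11.38, 10.94, 11.01 and 11.56 on day 1 of rotenone and at 11.22, 11.26, 10.56 and 10.71 on day 3, a difference of -0.28 (SE 0.40, exact permutation p = 0.26). In the controls it was at 8.99, 9.91, 8.78 and 9.02 and then at 10.51, 10.08, 11.27 and 10.11, a difference of 1.31. Mt1 was thus high on both treated days, and the controls of day 1 were the low group, all 4 below every other rat of the 2 days. Without the 2 cerebellar control arrays, the control difference was 1.03. The symbol Mt1 is carried by 2 clusters, of which the brighter one is given here, while the array numbers this cluster on another chromosome than the one on which GRCr8 places the gene, so it may measure a related copy. Mt3, the metallothionein of neurons and astrocytes, differed by 0.15. Of the 5 measured metallothionein genes none had an unadjusted p under 0.05, 1 separated the treated groups with the lower level at day 3, beside 0.991% of all genes, and their median was -0.28 against 0.48 in the controls.

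Glucocorticoid-responsive genes had a lower mean at day 3 in 16 of 20 cases, beside 43.2% of all genes. Zbtb16, a transcription factor strongly induced by glucocorticoids, was at 9.13, 9.38, 8.78 and 9.24 on day 1 of rotenone and at 8.68, 8.07, 8.25 and 8.63 on day 3. The groups did not overlap, with a difference of -0.73 (SE 0.26, exact permutation p = 0.029), while the 8 controls lay between 7.88 and 8.79. The treated rats of day 3 were thus inside the range of the controls and those of day 1 at its upper end or above it. Cdkn1a, an inhibitor of the cell cycle, was at 7.14, 7.83, 7.24 and 7.55 and then at 7.17, 7.05, 6.88 and 6.90, a difference of -0.44. Fkbp5, a co-chaperone of the glucocorticoid receptor, differed by -0.27 and Tsc22d3 by -0.05, beside -0.01 and 0.35 in the controls. Sgk1, a kinase induced by glucocorticoids, differed by -0.41 (SE 0.60), from -0.87 without rotenone day 1 replicate 1 to -0.09 without replicate 4, and was at -0.12 with array weights. Its control difference was 0.61, and 1.26 without the cerebellar arrays. None of these 3 had an unadjusted p under 0.05. The list had 2 genes at an unadjusted p under 0.05 with the lower level at day 3, beside 1.19% of all genes, and 0 with the higher, and a median of -0.12, against 0.06 in the controls.

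**Figure D4:**
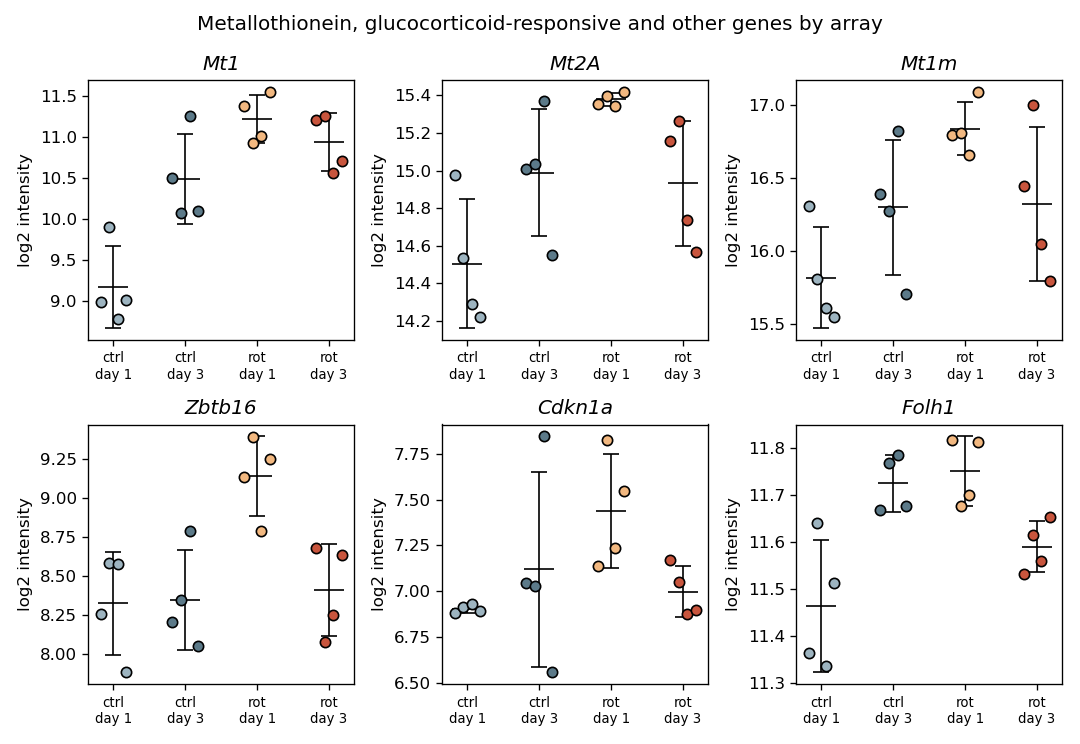
Log2 intensity (vertical axis) of Mt1, Mt2A, Mt1m, Zbtb16, Cdkn1a and Folh1 in each array by diet and day (horizontal axis), with a point for each rat, a dash for the mean and bars for the SD of 4 rats. Mt2A lies at 15.35 to 15.42 in the treated rats of day 1 and at 14.57 to 15.27 in those of day 3, and Mt1 is lowest in the controls of day 1.

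Among transcripts of stress signalling, Fos, an immediate early gene of neuronal activity, was at 6.87, 6.69, 6.54 and 7.39 on day 1 and at 7.37, 7.10, 7.36 and 7.41 on day 3, a difference of 0.44 that is 0.33 without rotenone day 1 replicate 3. Its control difference was 0.01, or 0.19 without the cerebellar arrays. Atf3, a transcription factor of cell stress, differed by -0.23 without overlap, and by 0.18 in the controls. Egr1 differed by 0.01. Of 23 measured immediate early genes, 1 was higher and 1 lower at an unadjusted p under 0.05, beside 2.5% and 1.19% of all genes. The median of that list was 0.02. Chac1, which degrades glutathione and is a target of the integrated stress response, was at 7.27, 7.27, 7.32 and 7.14 and then at 7.85, 7.62, 7.63 and 7.57. Its difference of 0.42 stood beside one of 0.44 in the controls, which was 0.08 without the cerebellar arrays. Psph, an enzyme of serine synthesis, and Atf5, a transcription factor, differed by 0.20 and 0.24, so that 3 of 25 genes of the integrated stress response had an unadjusted p under 0.05 with the higher level at day 3, beside 2.5% of all genes. In the controls 6 did, or 1 without the cerebellar arrays. Sod1, which removes superoxide in the cytosol, was at 13.10, 12.86, 13.12 and 13.14 and then at 13.40, 13.44, 13.37 and 13.30, a difference of 0.33 against 0.27 in the controls, or 0.07 without the cerebellar arrays. It was the only one of 21 Nrf2 target and glutathione genes at an unadjusted p under 0.05, beside 2.5% of all genes with the higher level.

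Txnip, the inhibitor of thioredoxin that follows the glucose supply of the cell, was at 10.89, 11.03, 11.52 and 11.56 on day 1 of rotenone and at 11.59, 11.69, 11.54 and 11.44 on day 3. The difference was 0.32 (SE 0.19, exact permutation p = 0.17) and the groups overlapped. The controls of the 2 days lay between 10.10 and 11.21, with the lowest in control day 1 replicate 3, a cerebellar array. The control difference was -0.17, or -0.37 without the cerebellar arrays. The difference of the changes was 0.49 (adjusted p = 0.9999 in limma), or 0.68 without those arrays. The cytosolic heat shock list had 0 of 19 genes at an unadjusted p under 0.05, with differences of 0.26 for Hspb8 and 0.19 for Dnajb1. In the controls 8 such genes were found, all with the higher level at day 3, or 0 without the cerebellar arrays. The median of the list was 0.07 in the treated rats and 0.18 in the controls, or 0.11 without those arrays. Cirbp and Rbm3, which respond to a fall in temperature, differed by 0.09 and -0.01, against -0.20 and -0.49 in the controls.

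Genes of the circadian clock had small differences between the treated groups. None of 12 measured core genes had an unadjusted p under 0.05, and the differences lay between -0.12 and 0.17. Per1, Per2 and Per3, the repressors of the clock, differed by -0.10, -0.02 and -0.05, Cry2 by 0.17, Nr1d1 by 0.02 and Bmal1 by 0.09. Among 15 output genes, 2 had an unadjusted p under 0.05 with the lower level at day 3, beside 1.19% of all genes, namely Fmo2 at -0.36 and Bhlhe41 at -0.23, and Dbp, the best known of them, differed by -0.08. In the controls, 4 core genes had an unadjusted p under 0.05 with the lower level at day 3, and none without the cerebellar arrays.

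Subunits of complex I, the target of rotenone, had a median difference of 0.14 between the treated groups and of 0.20 between the controls of the same days. Of 35 measured subunits, 5 had an unadjusted p under 0.05 with the higher level at day 3, beside 2.5% of all genes, and 12 in the controls, beside 7.31% of all genes with a higher and 3.26% with a lower level. Ndufs6, Ndufa12, Ndufs7 and Ndufb10 differed by 0.23, 0.27, 0.19 and 0.25 in the treated rats and by 0.23, 0.32, 0.10 and 0.19 in the controls. Complexes II to V had a median of 0.12 over 26 genes, with Cox6a1 at 0.35 and Cox5b at 0.21. For none of these 6 genes did the treated change differ from the control change at an unadjusted limma p under 0.05. Without the cerebellar control arrays, 0 complex I subunits of the controls had an unadjusted p under 0.05, and their median was 0.09.

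Tubulins, which rotenone also binds, all had a higher mean at day 3, in 14 of 14 measured genes, beside 56.8% of all genes. This was not particular to tubulins, as 26 of 26 genes of complexes II to V and 34 of 35 complex I subunits also had it. The tubulin list was bright, with a mean level of 13.14 at day 1. Clusters above the median level had 751 higher and 493 lower at an unadjusted limma p under 0.05. Tubb5, a beta tubulin, was at 15.07, 15.20, 15.18 and 15.11 on day 1 and at 15.43, 15.43, 15.37 and 15.51 on day 3, a difference of 0.29 (SE 0.09) against 0.10 in the controls. Tubb4b and Tuba4a differed by 0.32 and 0.18 without overlap, beside 0.38 and 0.12 in the controls, or 0.09 and 0.11 without the cerebellar arrays. In all, 3 tubulins had an unadjusted p under 0.05, beside 2.5% of all genes, and 6 separated the treated groups with the higher level at day 3, beside 3.09%. The median was 0.12, against 0.10 in the controls and 0.03 without the cerebellar arrays. Tubulin genes are similar in sequence, and their probes may share signal.

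Genes of fuel use had differences of similar size. The glycolytic enzymes Pgam1 and Gpi differed by 0.28 and 0.16 without overlap and Ldha, which makes lactate, by 0.26, with control differences of 0.04, 0.05 and 0.04. Of 28 genes of glucose use and lactate, 2 had an unadjusted p under 0.05 with the higher level at day 3, beside 2.5% of all genes, and in the controls 5, or 0 without the cerebellar arrays. Fabp3, a fatty acid carrier, differed by 0.33 against 0.18 in the controls, and Egln3, a sensor of oxygen, by 0.23 against 0.33. Fdps, an enzyme of the mevalonate pathway, differed by 0.19, beside 0.27 in the controls. Irs2, an adaptor of the insulin receptor, was at 10.29, 10.24, 10.26 and 10.58 and then at 10.60, 10.53, 10.68 and 10.65, and differed by 0.27, and Irs4 by 0.46 without overlap, beside 0.08 and 0.17 in the controls. The cell cycle genes Ccnb2, Kif20a and Rrm2, the last a subunit of the enzyme that makes deoxynucleotides, differed by -0.19, -0.17 and -0.36, and in the controls by 0.04, 0.19 and 0.40. Their mean levels, 6.41, 6.08 and 6.32, were near the median cluster, 6.24. Of 26 measured cell cycle genes, 2 had an unadjusted p under 0.05 with the lower level, beside 1.19% of all genes, and 0 with the higher. These were Ccnb2 and Kif20a. The median of the list was -0.07, with 9 differences above 0 and 17 below. Bax, which promotes cell death, differed by 0.20, beside 0.08 in the controls. Of 20 measured genes of apoptosis and p53 targets, Bax was the 1 higher at an unadjusted p under 0.05, beside 2.5% of all genes. Cdkn1a was the 1 lower, beside 1.19%. The median of that list was 0.04, with 13 differences above 0 and 7 below.

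The lists of other cells of the tissue differed in their medians. Genes of choroid plexus and ependyma, which make and line the spaces of cerebrospinal fluid, had a median of -0.17 over 15 genes, with 12 below 0 and none at an unadjusted p under 0.05, and of -0.10 in the controls. Their mean level ranged from 7.02 to 8.15 at day 1 of rotenone and from 6.96 to 7.71 at day 3. The medians of mature oligodendrocytes, astrocytes, microglia and endothelium lay between -0.02 and 0.02. Neu4, a sialidase of oligodendrocyte precursors, differed by -0.24 without overlap and by 0.25 in the controls. Gpr17, a receptor of the same cells, differed by -0.15, and by 0.31 in the controls. The 14 measured precursor genes had a median of -0.04, with 5 above 0 and 9 below. Tagln and Acta2, genes of smooth muscle around vessels, differed by 0.41 and 0.38 with overlap, beside 0.15 and -0.17 in the controls. Of the 23 endothelium and pericyte genes, 13 were below 0. Tagln was the 1 at an unadjusted p under 0.05 with the higher level, beside 2.5% of all genes. Cd163, a gene of macrophages along vessels, differed by -0.18, beside -0.09 in the controls. Stat2 and Rsad2, both of the interferon response, had opposite signs, at 0.27 and -0.66. Rsad2 was at 8.05 in rotenone day 1 replicate 3 and at 5.96 to 6.77 in the other 3 rats of that group, and without it the difference was -0.27.

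**Figure D5:**
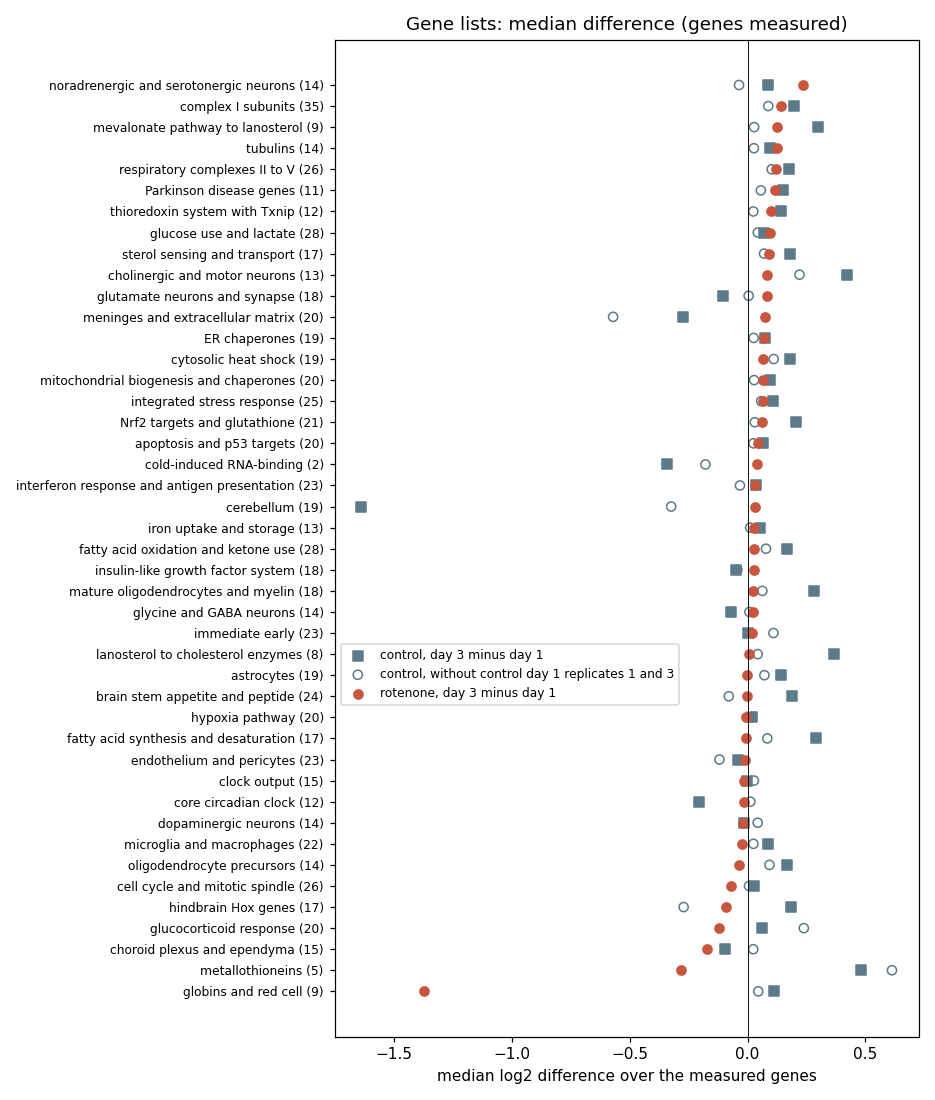
Median log2 difference of day 3 minus day 1 (horizontal axis) over the measured genes of each of 44 gene lists (vertical axis, number of genes in brackets) in rotenone-fed rats, in controls, and in controls without control day 1 replicates 1 and 3. The list of globins and red cell genes is at -1.37 in the treated rats, and the cerebellum list at -1.64 in the controls and -0.32 without the 2 arrays.

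The 12 genes with the smallest p in each direction differed in how bright they were. Of the 12 with the higher level at day 3, 11 had a mean above the median cluster of the array, as had 65.5% of all genes. After Slc18a2 they included the neighbouring genes Mcoln1, a calcium channel of lysosomes, and Pnpla6, a phospholipase whose loss harms long axons. Mcoln1 was at 11.15, 10.95, 11.07 and 10.96 on day 1 and at 11.52, 11.34, 11.54 and 11.54 on day 3, a difference of 0.46 (SE 0.11), beside 0.20 in the controls and 0.03 without the cerebellar arrays. Pnpla6 was at 9.44, 9.23, 9.28 and 9.52 and then at 9.79, 9.65, 9.89 and 9.86, a difference of 0.43, beside 0.21 in the controls and 0.055 without those arrays. The ubiquitin ligases Rnf187 and Rnf41 differed by 0.29 and 0.28, Slc35f3 by 0.36, Rabac1, which binds Rab proteins, by 0.27, Gdap1l1 by 0.26, Tada3lb by 0.52 and the uncharacterized LOC102556486 by 0.51. In the same order, the control differences were 0.14, 0.05, 0.26, 0.22, 0.06, 0.15 and 0.06. Those of Slc35f3 and Rabac1 were also without overlap, and were 0.21 and 0.15 without the cerebellar arrays.

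Of the 12 genes with the lower level at day 3, 9 had a mean below the median cluster, as had 34.5% of all genes. Odorant receptors made up 4 of them, beside 1 among the genes of the other direction. The share of odorant receptors over all genes was not counted, so these counts are not read as a trait of either direction. Over all clusters, those below the median level had a median difference of -0.03, with 440 higher and 1032 lower at an unadjusted p under 0.05, and those above it a median of 0.00, with 751 higher and 493 lower. The brightest of the 12 was the cluster of Mir211, a microRNA gene of the same family as miR-204. Its mature sequences are shown because it was the only microRNA gene of these lists that lay above the median cluster, with the seed (bases 2 to 8) in capitals.
rno-miR-211-5p: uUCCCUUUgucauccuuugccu
rno-miR-211-3p: gGCAAGGAcagcaaaggggg
They are those of RefSeq in build GRCr8, at chr1:127189353-127189374 and chr1:127189389-127189408 on the plus strand. Mir211 was at 9.39, 8.63, 9.12 and 9.10 on day 1 and at 8.59, 8.39, 8.47 and 8.76 on day 3, a difference of -0.51 (SE 0.15, exact permutation p = 0.057) against -0.04 in the controls. Such a probe set does not tell the precursor from the mature form.

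Hmx1, a homeobox transcription factor, was at 6.04, 5.96, 5.86 and 5.97 and then at 5.61, 5.63, 5.77 and 5.61, a difference of -0.30, beside 0.20 in the controls. Fcrl2, an Fc receptor-like gene, was at 6.53, 6.30, 6.51 and 6.26 and then at 5.36, 6.09, 5.78 and 6.12, a difference of -0.57. Gk2, a glycerol kinase known from the testis, differed by -0.40. All 3 separated the groups, and all 3 had levels near that of the median cluster, 6.24.

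Genes for which the treated and the control change differed most were again read against the 2 cerebellar control arrays. Inpp1, a phosphatase of inositol signalling, was at 10.08, 10.17, 10.17 and 10.10 on day 1 of rotenone and at 10.27, 10.35, 10.36 and 10.42 on day 3, a difference of 0.22 without overlap. In the controls it was at 10.96, 10.22, 11.05 and 10.34 and then at 10.14 to 10.22, a difference of -0.45. The difference of the changes was 0.67, and 0.31 without the 2 arrays. Rnf19b, Bex4, Zfp521 and Kctd8 had differences of the changes of 0.60, 0.86, 0.60 and 0.61, and of 0.33, 0.46, 0.26 and 0.33 without them. Folh1, which releases glutamate from a neuropeptide, was at 11.81, 11.68, 11.70 and 11.81 on day 1 of rotenone and at 11.53, 11.61, 11.56 and 11.65 on day 3, with a difference of -0.16 against 0.26 in the controls. Uts2, a peptide of motor neurons, differed by -0.09 in the treated rats and by 0.86 in the controls, or 0.63 without the 2 arrays.

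By the criteria of the methods, turned here to the 2 treated groups, 4 clusters or 0.00581% of all were selected, 3 with the higher and 1 with the lower level at day 3. These criteria asked for a P under 0.001 in the contrast, under 0.05 in a Kruskal-Wallis test over the 8 arrays, and for means that differed at least 1.8-fold. Slc18a2 was the only one with a gene symbol. The others were TC1100000684.rn.1, at 4.19, 4.19, 3.80 and 3.74 on day 1 and at 5.03, 4.96, 5.32 and 5.81 on day 3, with a difference of 1.30, TC0700002567.rn.1, with 0.93, and TC1000001309.rn.1, at 6.24, 5.78, 5.93 and 6.37 and then at 4.70, 5.18, 5.04 and 5.51, with -0.97. All 3 lay below the median cluster.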

How the data were processed

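Brain stem RNA of 24 male rats, 1 for each array, was hybridized to Affymetrix Rat Transcriptome Arrays (RTA 1.0). GCCN and SST corrections were applied by the authors, followed by RMA, which the submitters' processing notes also name. The deposited table holds intensities, not log values. The genome build of the array annotation is not given in the sources used here. Of 70580 entries, 1738 were control probe sets and were dropped. The other 68842 were transformed to log2 with no further normalization. Array medians lay between 71.52 and 83.24 intensity units. Precision is limited by how many arrays there are. Symbols came from the annotation of the array, with 23446 clusters of 1 symbol, 505 of several and 44891 of none. The table of GRCr8 served for names, neighbours and the chromosome of Mt1. Where clusters shared a symbol the brightest stood for the gene, leaving 22093 genes.

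Model fits used limma 3.58.1 (R 4.3.3) on the 24 arrays, with 6 group means (2 diets at days 1, 3 and 14), 18 residual and 3.64 prior degrees of freedom. Contrasts were day 3 minus day 1 in treated and in control rats, and the difference of both. Benjamini-Hochberg adjustment ran over the 68842 clusters, with a threshold of 0.05. The limma p-values and SEs rest on the spread between the rats of a group, pooled over all 6 groups. Control arrays that stand apart thus widen the SE of a treated difference. For Th, the SD was 0.18 and 0.39 in the treated rats of days 1 and 3 and 1.195 in the controls of day 1. For Dbh, it was 0.246 and 0.228 beside 1.426. The analysis was tested on simulated data. Promoter and microRNA sequences were those of RefSeq. Figures were drawn with matplotlib 3.10.9.

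The comparison, the 44 gene lists and the rules were chosen with earlier results of these data known. The lists are described by counts and medians beside those of all genes, with no test of a list. Named genes are the 12 in each direction past the threshold or, as none passed, with the smallest p, the 6 in each direction with the smallest p for the difference of the changes, up to 6 genes of each list with the smallest p or any gene of the clock, clock output, metallothionein, glucocorticoid, immediate early, heat shock, cold-induced and thioredoxin lists, no more than 2 unnamed clusters per direction, and the clusters that met the criteria of the methods. Alox15, Hba-a1, Th, Dbh, Hoxa2 and Slc6a5 were named after their values were seen. Alternatives were quantile normalization, centring on the median, other priors, no moderation, no dim clusters, only clusters with 1 symbol, 1 of each identical set, array weights, the replicate number as a block, fewer arrays, covariates for cerebellum and choroid plexus, another threshold, and each array left out.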

Additional observations from a re-analysis of the deposited data

Results flagged for a closer look

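In 13 of 116 groups of 4 arrays, taken over the 29 genes given by array and both diets at days 1 and 3, 1 rat lay far from the other 3. Chance flags about 1 in 20 such groups, and genes that move together in 1 rat are flagged together.

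Control day 1 replicate 1, an array with cerebellar transcripts, was low for the serotonin neuron genes. Tph2 was at 6.36 there and at 10.93 to 11.64 in the other 3 controls of day 1, Slc6a4 at 6.60 against 10.11 to 10.18, and Slc17a8 at 5.95 against 6.28 to 6.33. Control day 1 replicate 3, the other array with cerebellar transcripts, had Tph2 at 10.93, Slc6a4 at 10.18 and Slc17a8 at 6.33. Control day 3 replicate 4 had Slc6a4 at 11.17 against 9.84 to 9.97, Sod1 at 13.16 against 13.27 to 13.29, and Tubb5 at 15.48 against 15.30 to 15.33.

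Rotenone day 3 replicate 2 stood apart for 4 genes. Alas2 was at 8.35 against 7.08 to 7.29 and Alox15 at 6.91 against 6.25 to 6.28, while Fos was at 7.10 against 7.36 to 7.41 and Mcoln1 at 11.34 against 11.52 to 11.54. In rotenone day 3 replicate 3, Hmx1 was at 5.77 against 5.61 to 5.63. On day 1 of rotenone, Sod1 was at 12.86 in replicate 2 against 13.10 to 13.14, and Irs2 at 10.58 in replicate 4 against 10.24 to 10.29.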

How the results depend on the processing

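For the treated comparison and for the difference of the changes, 0 clusters passed the threshold in limma at an adjusted p under 0.05 in every alternative run, and at 0.1 with all arrays. The lowest adjusted p of the treated comparison was 0.4929, with array weights, and that of the difference of the changes 0.0726, without rotenone day 3 replicate 3. Without moderation, 52.2% of the treated clusters at an unadjusted p under 0.05 were higher at day 3, against 43.9% in the comparison as reported and 65.2% with centred arrays. The control comparison had 231 clusters past the threshold without control day 1 replicate 4, 54 higher and 177 lower, and 0 with any other array left out, so the range was 0 to 231. By the criteria of the methods, 11 clusters were selected at a ratio of 1.5, and 3 to 5 with each array left out.

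The replicate numbers of the labels do not pair rats of different days. The correlations of deviations between same-numbered treated arrays were -0.003, -0.091, 0.144 and -0.078, and only replicate 3 correlated best with its own number. Between same-numbered control arrays they were -0.068, -0.085, 0.098 and 0.273, and replicates 3 and 4 correlated best with their own number. With the replicate block, 0 clusters passed in the treated, control and difference comparisons.

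Of the named genes, 7 turned in sign under some alternative, all with differences near 0. With the arrays centred, Per2 was 0.023 and Rbm3 0.031, with array weights Per2 was 0.031, and with quantile normalization and with the covariates Nr1d1 was -0.0085 and -0.0043. With each array left out, Per1 ranged from -0.21 to 0.021, Per2 from -0.088 to 0.046, Per3 from -0.21 to 0.032, Rbm3 from -0.066 to 0.072, Tsc22d3 from -0.12 to 0.044, Nr1d1 from -0.11 to 0.18 and Egr1 from -0.096 to 0.15. The medians of the core clock list and of the list of mitochondrial biogenesis and chaperones moved by more than 1 SD between arrays in 5 settings in all, the clock list taking both signs, and 479 other list values did not. The number of arrays, 4 in each group, limits the precision.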

Other observations

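The day 14 rats extend the values of the red cell and serotonin genes. Hbb-b1 was at 11.40, 9.69, 8.69 and 7.21 in the rats fed rotenone for 14 days and at 13.48, 13.87, 14.93 and 14.78 in their controls. Alas2 was at 7.04, 6.31, 6.52 and 6.45 after 14 days of rotenone and at 7.95, 8.27, 9.15 and 8.96 in the controls. Tph2 was at 10.95, 9.32, 10.80 and 10.05 in the treated rats of day 14, all below the 4 treated rats of day 3. Its controls of day 14 were at 7.555, 12.105, 11.647 and 11.245, so control day 14 replicate 1 lay below all 4 treated rats of that day. Slc18a2 was at 8.70, 8.65, 8.80 and 8.48 after 14 days of rotenone, again below all 4 of day 3. Its day 14 controls were at 9.34, 9.35, 9.16 and 9.09. These values were not tested here.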
